A study of Danio rerio with 18 samples.

Results

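To follow how open chromatin of hepatocytes (HEPs) changed in an injured liver, the ATAC-seq peaks of HEPs from fish given thioacetamide (TAA) were compared with those of control fish. ATAC-seq marks regions where a transposase can reach the DNA, and a peak is a stretch with more insertions than its surroundings. HEPs were dsRed-positive cells sorted from livers of adult female Tg(fabp10a:dsRed) zebrafish in the AB background, in which the promoter of the hepatocyte fatty acid binding protein gene fabp10a drives the fluorophore. Control fish received sterile water and treated fish received TAA at 500 mg/kg, each injected into the abdomen 6 times over 2 weeks, and both carried the same transgene. In other places the study names saline as the control injection. Each of the 6 HEP libraries was made from 60000 sorted cells, with 3 libraries per group. The labels do not tie libraries to single fish, and the study's methods count fewer control fish than control libraries over all cell types, so the libraries of a group may not be independent. The age of the fish is not given.

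Hepatocytes are the main metabolic cells of the liver and the cells in which TAA is turned into its toxic products. Their gene programme is held by liver-enriched transcription factors that bind promoters and distant enhancers, and such bound regions are free of nucleosomes and appear as peaks. A region can pass from open to closed when factors leave it.

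For each group the deposited data are a single list of peaks that pools the 3 libraries, so no value given here has a replicate error and no test across replicates was possible. The control list held 41563 peaks and the TAA list 44649, out of 308216 peaks in the 6 lists of the series, which also cover hepatic stellate cells (HSCs) and endothelial cells (ECs). HSCs were sorted from Tg(hand2:EGFP) fish and ECs from Tg(kdrl:ras-mCherry) fish, which received the same injections. Each comparison of cell types is thus also one of fish lines. A control peak with no TAA peak overlapping it by at least 1 bp was called lost, a TAA peak with no control peak was called gained, and the others were called kept. By this rule 5883 control peaks were lost, 8969 TAA peaks were gained, and 35680 peaks of either list were kept. The lost share was 14.2% of control peaks (95% Wilson interval 13.8 to 14.5) and the gained share 20.1% of TAA peaks (19.7 to 20.5), with intervals that cover counting error over peaks only. With the TAA list reduced to the length of the control list, the shares were 16.9% and 16.9%, as equal lengths nearly force. The score of a peak is 10 times the negative log10 of its q-value, which grows with sequencing depth, and how deeply the libraries were sequenced cannot be read from the lists, so depth is unknown. Peaks were therefore placed by their score percentile within their own list, where 100 is the best score. The lists could not be checked against hepatocyte marker genes, because no gene annotation of the build of the files (GRCz11) was used here.

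Lost and gained peaks were the weak and narrow peaks of their lists. Lost peaks had a median score of 140 (10th to 90th percentile 88 to 250), compared with 379 (143 to 1373) for kept control peaks. Gained peaks had a median score of 157 (98 to 268), compared with 423 (158 to 1289) for kept TAA peaks. The median lost peak thus lay at the 15.1 percentile of the control list, and the median gained peak at the 17.9 percentile of the TAA list. The median width was 123 bp for lost and 124 bp for gained peaks, against 186 bp for kept peaks in both lists. Peaks of 100 bp, the narrowest width in the lists, made up 21.9% of lost and 18.4% of gained peaks, and 3.33% and 2.46% of the kept peaks in the control and TAA list.

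The lost share rose steadily down the control list. With each list cut into 10 bins of nearly equal size by score, it was 1 of 4154 peaks in bin 1, the best, 192 of 4166 (4.61%) in bin 5 and 2124 of 4173 (50.9%) in bin 10. The gained share rose in the same way, from 2 of 4467 peaks in bin 1 to 298 of 4460 (6.68%) in bin 5 and 2706 of 4459 (60.7%) in bin 10. In the better 50% of each list, set against the whole of the other list, 286 of 20796 control peaks were lost (1.38%) and 425 of 22334 TAA peaks were gained (1.90%). These peaks were 4.86% of all lost and 4.74% of all gained peaks. The strong open regions of HEPs were therefore found in both lists with few exceptions. Within the same 20% of the control list, lost peaks were also narrower than kept peaks, but they scored lower too. Their median score was 116 against 127 in the lowest 20% and 292 against 318 in the middle 20%. Widths at equal score were therefore not compared. In the lowest 20% of the control list the medians were 111 bp for lost and 121 bp for kept peaks, and in the middle 20% they were 154 bp and 172 bp. Gained and kept peaks differed in the same way, with 111 bp and 122 bp in the lowest 20% of the TAA list and 154 bp and 169 bp in the middle 20%.

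**Figure D1:**
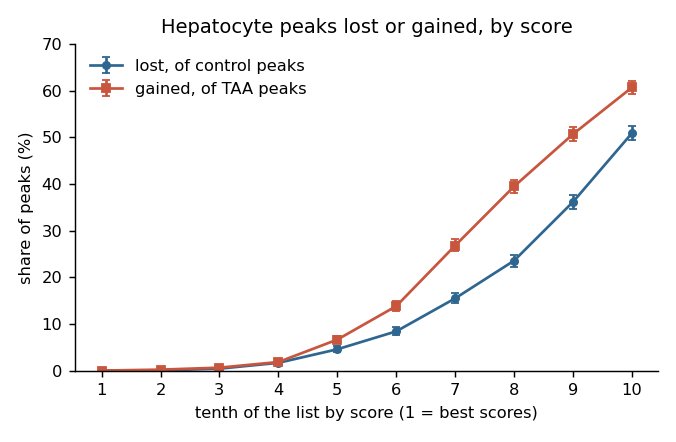
Share of HEP control peaks that were lost and of HEP TAA peaks that were gained (y axis, %) in each of 10 bins of its list by score (x axis, 1 is the best). Bars are 95% Wilson intervals over peaks; both shares lie near 0 in the first bins and reach 50.9% and 60.7% in the last.

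The same bins of the other cell types show where HEPs stood. In the best 20% of the control lists, 4 of 8311 peaks were lost in HEPs, 7 of 11053 in HSCs and 2574 of 10244 (25.1%) in ECs. In the lowest 20%, the lost shares were 43.6%, 46.0% and 71.1%. The HEP share thus lay just below the HSC share, while EC peaks were lost at every level of score. With 1 list per group, none of these differences could be tested.

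The strongest changed regions were next looked at one by one, in each of the 6 lists. The strongest lost peak, at chr14:48328881-48329104, had a control score of 1521 (rank 2790). It had no peak in HSC control, but scores of 1734 in HSC TAA, 1647 in EC control and 2451 in EC TAA. The next, at chr21:35900755-35900971 with a control score of 1077, was present in all 4 lists of the other cell types, with scores from 236 in EC control to 1714 in HSC control. The peaks at chr22:8013188-8013402 (score 913) and chr23:43392913-43393168 (score 854) were also present in all 4. Each of the 10 strongest lost regions had a peak in 3 or 4 of the 4 other lists, and each had one in both the HSC TAA and the EC TAA list. Kept control peaks of like score were nearly always in those lists too, with 99.94% in HSC TAA and 99.96% in EC TAA for the best 20% of the control list and 99.7% and 98.7% for the next 20%, so this count is no more than the background.

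The strongest gained peak, at chr13:42811192-42811511, was of another kind. It had a TAA score of 1377 (rank 3009) and a width of 320 bp, and its single counterpart in the other lists was a peak of score 103 in HSC control. The next, at chr22:7672233-7672598, had a TAA score of 1250 and was found in both HSC lists (1376 in control, 1212 in TAA) and in neither EC list. Another, at chr22:6562571-6562864 (score 1082), was found in all 4 other lists. The peak at chr4:73933714-73933914 (score 1007) was again present in both HSC lists, with 1314 and 963, and absent from both EC lists. All 10 of the strongest gained regions had a peak in HSC control, and 4 of them had one in EC control. Among kept TAA peaks of the best 20%, the background shares were 99.9% in HSC control and 82.5% in EC control. Of the 10, 3 lay on chromosome 22 and 3 on chromosome 4. Of all 44649 TAA peaks, 1350 and 1598 lay on these chromosomes, and of all 8969 gained peaks 291 and 398. Regions that changed in HEPs and were seen in no other cell type were weaker. The strongest of these had a score of 591 among lost peaks (chr15:43196318-43196589) and 485 among gained peaks (chr4:43226062-43226257).

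Most lost and gained regions were open in HSCs or ECs. At least 1 of the 4 other lists held 88.9% of lost peaks (5228 of 5883) and 92.3% of gained peaks (8278 of 8969), compared with 99.8% of kept peaks. All 4 held 13.6% of lost, 19.1% of gained and 59.5% of kept peaks. The difference was also seen within the lowest 20% of each list, where scores were closer but not equal. In the lowest 20% of the control list, 84.4% of lost and 98.9% of kept peaks were in at least 1 other list, and 9.54% and 30.7% were in all 4. In the lowest 20% of the TAA list, the shares in all 4 were 12.7% of gained and 26.2% of kept peaks. Read the other way, the lost share fell with the number of other lists that held a peak, from 655 of 736 control peaks (89.0%) found in none, through 76.4% in 1, 43.2% in 2 and 14.2% in 3, to 798 of 22016 (3.62%) in all 4. The gained share fell from 691 of 772 TAA peaks (89.5%) to 1713 of 22928 (7.47%). Within the lowest 20% of the control list the lost share still fell, from 91.7% in none to 19.3% in all 4.

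**Figure D2:**
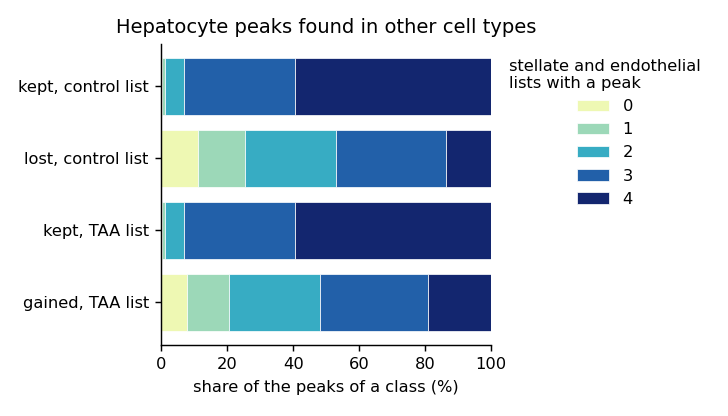
Share of kept, lost and gained HEP peaks (x axis, %) by the number of HSC and EC lists, from 0 to 4, that also held a peak. Of kept peaks 59.5% were in all 4 lists, of lost peaks 13.6% and of gained peaks 19.1%.

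Few regions were open in both HEP lists and in no other. In all, 80 regions matched one-to-one between both HEP lists had no peak in any HSC or EC list, with a median percentile of 13.8 in control and 22.7 in TAA. The best of them, at chr3:60405182-60405430, ranked 6917 in control with a score of 933 and had a score of 482 after TAA. The next, at chr7:23818474-23818831, went from a score of 772 and a width of 358 bp to 125 and 130 bp. In a further pair of neighbours on chromosome 3, the peak at chr3:31298887-31299061 (score 421) was lost. The one at chr3:31299179-31299425 was kept, but its score fell as well, from 394 in control to 159 in TAA. Of the 80 regions, 48 had a higher and 32 a lower percentile after TAA. Over all 35445 kept regions matched one-to-one, the median shift in percentile was also a rise, of 1.30 points. The share of rises among them was not computed, so the count of 48 has no background to be set against. The single regions named here were chosen after their values were seen. Those that were kept were picked by control score, a choice that favours falls.

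By cell type, lost peaks were found in the HSC control list in 62.2% and in the HSC TAA list in 65.0% of cases, and in the EC control and EC TAA lists in 37.6% and 59.5%. For gained peaks the shares were 67.8% and 71.2% in HSCs and 42.4% and 61.4% in ECs. Of kept control peaks, 97.2% and 95.2% were in the HSC control and TAA lists, and 67.3% and 91.7% in the EC control and TAA lists. The higher share in EC TAA than in EC control was thus seen in kept peaks as well. In HSCs the lost and gained peaks had the higher share in the TAA list and kept peaks in the control list, and the HSC TAA list was the longer one, with 61245 peaks against 55293. The HSC lists split lost peaks into 894 in control alone and 1060 in TAA alone. They split gained peaks into 1305 in control alone and 1608 in TAA alone.

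Most changed peaks stood alone, though the next peak was changed more often after a changed peak than after a kept peak. As single events, with kept peaks on either side, stood 4097 of 5883 lost peaks (69.6%) and 5344 of 8969 gained peaks (59.6%). What share would stand alone with random placement was not computed. The peak after a lost peak was lost in 16.9% of cases (interval 15.9 to 17.8) and the peak after a kept peak in 13.7% (13.4 to 14.1). After a gained peak 23.0% (22.1 to 23.9) and after a kept peak 19.4% (18.9 to 19.8) were gained. The difference was not the same at each level of score. For loss the shares after lost and after kept peaks were 17.1% and 13.9% in the lowest 20% of the list, 16.9% and 13.9% in the 20% above it, and 13.9% and 14.1% in the middle 20%. For gain they were 24.3% and 20.6% in the lowest 20% and 21.5% and 19.5% in the middle 20%, and in the 20% between them 21.02% and 19.72%. The second best 20% held few changed peaks but had the wider differences. There the shares were 25.6% (23 of 90) and 13.7% for loss, and 28.9% (33 of 114) and 19.0% for gain. The best 20% held only 4 lost and 13 gained peaks. By the rule, lost and gained peaks cannot overlap, so only the distances between them were compared. A gained peak lay within 1 kb of 3.71% of lost peaks and of 3.34% of kept control peaks, and within 10 kb of 19.1% and 20.4%. A lost peak lay within 1 kb of 2.43% of gained peaks and of 2.83% of kept TAA peaks, and within 10 kb of 12.8% and 15.7%. Lost peaks had a TAA peak of any kind within 100 bp in 77 cases (1.31%), and of the kept pairs matched one-to-one 2 overlapped by less than 10 bp. Peaks without a neighbour within 100 kb in their own list made up 2.75% of lost against 1.20% of kept control peaks, and 1.92% of gained against 0.959% of kept TAA peaks. These shares were not matched for score. In the middle 20% of the control list, 27.7% of lost and 20.6% of kept peaks had a neighbour within 1 kb. The shares were 25.1% and 18.3% in the 20% below it, 14.5% and 13.1% in the lowest 20%, and 14.4% and 22.3% in the second best 20%. For gained and kept TAA peaks they were 20.7% and 20.8% in the middle 20% and 12.7% and 16.8% in the lowest.

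A few stretches were dense in changed peaks. The highest gained share was on chromosome 22 between 6 and 7 Mb, where the HEP control list had 12 peaks and the HEP TAA list 33. Of these 33 peaks 24 were gained (72.7%, interval 55.8 to 84.9), while the median over 1195 windows of 1 Mb with at least 15 TAA peaks was 19.7%. The other lists had 41 peaks there in HSC control, 58 in HSC TAA, 21 in EC control and 41 in EC TAA. Of the 24 gained peaks, 21 were present in HSC control, 22 in HSC TAA, 5 in EC control and 14 in EC TAA. Of all gained peaks, 67.8%, 71.2%, 42.4% and 61.4% were in these lists. The scores of the 24 ran from 99 to 1082. The window held the longest run of neighbouring gained peaks, 11 peaks from chr22:6425319-6866202, and a second run of 8 peaks at chr22:6260990-6318150. Further along the same chromosome, 6 neighbouring control peaks at chr22:7899953-8105929 were lost. The longest run of lost peaks had 7 peaks, at chr16:36433681-36572127, with scores from 144 to 227. All 7 were present in at least 1 other list, as were 88.9% of all lost peaks. The run overlapped the window of 100 kb on chromosome 16 from 36400001 to 36500000. In that window 7 of 9 control peaks were lost and no TAA peak was gained. Among windows of 1 Mb with at least 15 control peaks, the highest lost share was 16 of 34 (47.1%), on chromosome 14 between 17 and 18 Mb, against a median of 13.6%. The other windows of 100 kb with most changes, taken by share where counts were equal, had 6 losses on chromosome 22 from 2100001 to 2200000 (of 10) and on chromosome 18 from 38700001 to 38800000 (of 11), and 7 gains on chromosome 4 from 8100001 to 8200000 (of 13), chromosome 20 from 29500001 to 29600000 (of 15) and chromosome 19 from 42000001 to 42100000 (of 18). The windows of 1 Mb were examined after the values were seen.

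By chromosome, loss and gain were close to the genome-wide shares. The interval of the lost share included the genome-wide value on 21 of 25 chromosomes and that of the gained share on 22 of 25. More peaks were gained than lost on every chromosome, with 1.27 to 1.97 gained peaks per lost peak. The TAA list was also the longer one on every chromosome. With 35680 kept peaks in either list, the surplus of gained peaks is the difference in list length. At equal length the shares over all chromosomes were 16.9% lost and 16.9% gained. Chromosome 4 had the highest value of both, with 16.9% lost (15.1 to 18.9) and 24.9% gained (22.8 to 27.1). The excess of loss came mostly from its middle, and that of gain from its middle and end. Between 30 and 70 Mb, 69 of 150 control peaks were lost (46.0%) and 70 of 155 TAA peaks gained (45.2%), whereas between 0 and 30 Mb the shares were 12.6% and 20.2%. Peaks between 30 and 70 Mb were sparse, with a median distance of 59.9 kb to the nearest peak, and weak, with a median percentile of 32.1 in control. Both shares were above the 21.1% lost and 27.3% gained that these peaks would have at the genome-wide share of their score bins. In bins of 10 Mb within this stretch, with few peaks each, the gained share ran from 9 of 35 (25.7%) to 30 of 48 (62.5%). The lost share ran from 13 of 32 (40.6%) to 22 of 43 (51.2%). From 70 Mb on, 36.7% of TAA peaks were gained, against 23.9% by score bin. Of control peaks there, 19.3% were lost (14.1 to 25.9), against 17.8%.

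**Figure D3:**
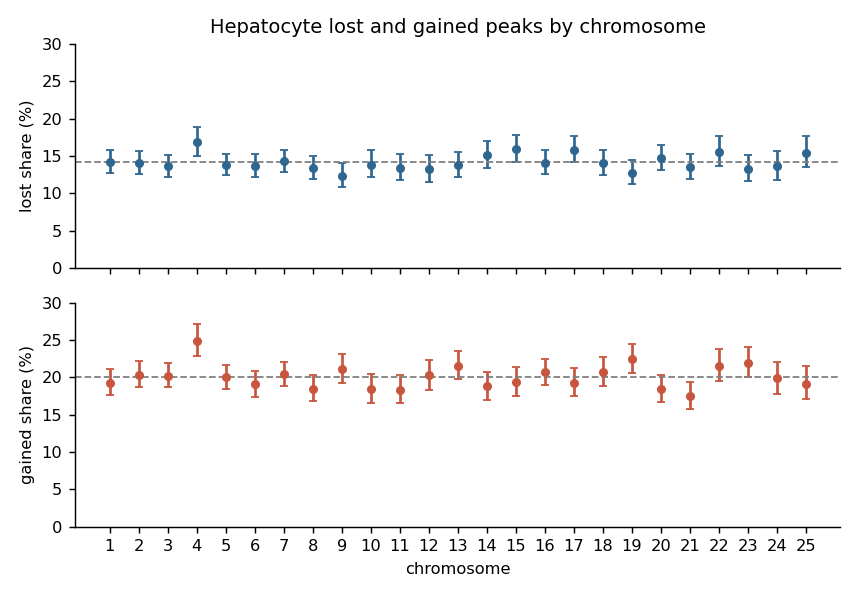
Share of HEP control peaks lost (upper panel) and of HEP TAA peaks gained (lower panel), in %, on each of the 25 chromosomes, with 95% Wilson intervals over peaks. Dashed lines are the genome-wide shares of 14.2% and 20.1%; chromosome 4 is highest in both panels.

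Kept regions were compared by their place in the 2 lists. Of the 35680 kept control peaks, 35445 (99.3%) matched a single TAA peak that matched no other. The peaks sat in the same place, with a median distance of 10 bp between summits, and in 98.2% of pairs the overlap covered at least 50% of both peaks. Scores in the 2 lists went together, with a Spearman correlation of 0.851 across regions, which are not replicates. The shift in percentile from control to TAA had a median of 1.30 points (10th to 90th percentile -16.3 to 22.1), and 57.0% of regions moved by at most 10 points. A rise of over 20 points was seen in 4223 regions (11.9%) and a fall of over 20 points in 2542 (7.17%). Percentiles were taken within whole lists, and the TAA list held 8969 mostly weak gained peaks, against 5883 lost peaks in the control list. Kept peaks had a median percentile of 59.8 in TAA and 56.7 in control. The balance of rises and falls is therefore no measure of net opening. Width followed the shift. Regions that rose by over 20 points had a median width of 146 bp in control and 178 bp in TAA, and those that fell by as much had 177 bp and 141 bp.

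The scores of the strongest kept regions moved differently from the rest. Regions were placed in bins of 20 points by their mean percentile, which differ in size. In the best bin, the median ratio of TAA to control score was 0.930, and 37.7% of 8230 regions scored higher in TAA. In the second best bin the ratio was 1.06, and 55.9% of regions scored higher. In the middle bin and the bin after it the ratio was 1.14 and 1.15, and 61.1% and 60.4% of regions scored higher. In the lowest bin, with 3316 regions, the ratio was 1.06 and 55.7% scored higher. The TAA list was thus flatter at its top than the control list, with a 99th percentile of score of 2114 against 2520. Scores depend on depth, whose part in this was not tested.

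The 5 largest rises and 5 largest falls among regions in the better 50% of at least 1 list give the scale of change in kept regions. The largest rise, at chr21:22375037-22375136, went from a score of 111 and 100 bp to 975 and 269 bp. A second on the same chromosome, at chr21:1110684-1110818, went from 118 to 1040. Both were present in all 4 lists of other cell types, where the first scored from 403 to 822 and the second from 403 to 1645. The largest fall, at chr7:45864897-45865086, went from a score of 936 and 190 bp to 119 and 100 bp, and that at chr1:42789808-42790065 from 724 to 80. All 5 falls were at regions with a peak in both HSC lists and in EC TAA, and 4 of the 5 had no peak in EC control. Of all kept control peaks, 93.1% were in both HSC lists, 91.7% in EC TAA and 67.3% in EC control. The count of 5 is thus close to the background. Over all kept regions, a fall of over 20 points was seen in 11.0% of those without a peak in EC control and in 5.29% of those with one. These classes also differed in strength, with median control percentiles of 48.2 and 61.5. Rises were seen in 13.8% and 11.0%. Falls were also more frequent at regions without a peak in HSC control, HSC TAA or EC TAA. For HSC control they were seen in 13.2% without and 6.998% with a peak. For HSC TAA the shares were 10.7% and 6.996%, and for EC TAA 9.81% and 6.93%. Rises were more frequent there too. For HSC control they were seen in 17.3% without and 11.8% with a peak. For HSC TAA the shares of rises were 14.95% and 11.8%, and for EC TAA 15.9% and 11.6%. Larger shares without a peak were thus not particular to EC control, nor to falls. Regions without a peak in HSC control, HSC TAA or EC TAA were weaker as well, with median control percentiles of 20.6, 19.6 and 23.96.

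**Figure D4:**
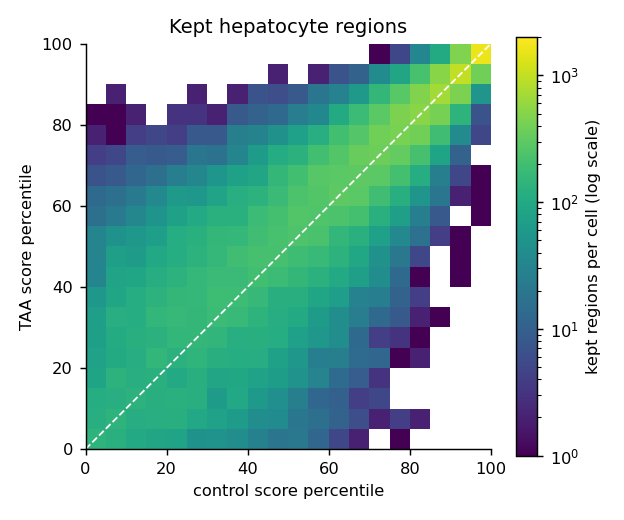
Score percentile in the control list (x axis) and in the TAA list (y axis) of the 35445 kept HEP regions matched one-to-one, as counts in cells of 5 by 5 points with a logarithmic colour scale. The dashed line marks equal percentiles; regions lie close to it at the top and spread widely below.

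To see whether the regions that moved in HEPs also moved in the other cell types, the percentile shift was compared at regions kept in both. Shifts in HEPs had no clear relation to those in HSCs, with a Spearman correlation of -0.0139 over 32368 regions, nor to those in ECs, with -0.00868 over 20939. Shifts in HSCs and ECs went together more, with 0.221 over 23857 regions. At the 20454 regions kept in all 3 cell types, the values were -0.0412, -0.0115 and 0.248. These correlations are descriptive, since regions share the libraries behind each list. The HEP values were small under each setting tried but not of fixed sign. With the best 20000 peaks of each list they were -0.0754 with HSCs and -0.0253 with ECs, and the HSC value with ECs was 0.338. With the log2 ratio of scores in place of the shift, they were 0.0146, 0.00925 and 0.273. Regions that rose by over 20 points in HEPs rose as much in HSCs in 15.9% of cases, and regions that fell in HEPs did so in 18.8%, against 9.88% of all regions compared. Falls of over 20 points in HSCs were seen in 8.98% of HEP risers and 11.2% of HEP fallers, against 5.84% of all. In ECs, 19.6% of HEP risers and 20.8% of HEP fallers rose, against 19.7% of all, and 17.2% and 21.3% fell, against 10.2%. Regions that moved in HEPs, in either direction, thus had larger shares of rises and falls in HSCs and of falls in ECs than all regions compared. This comparison was not matched for strength. Over all kept HEP regions, the standard deviation of the shift was taken in bins of 20 points by mean percentile. It was 5.28 points in the best bin and 19.1 in the middle bin. HEP risers and fallers had median control percentiles of 23.4 and 52.8. A shared response of the cell types was not tested.

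**Figure D5:**
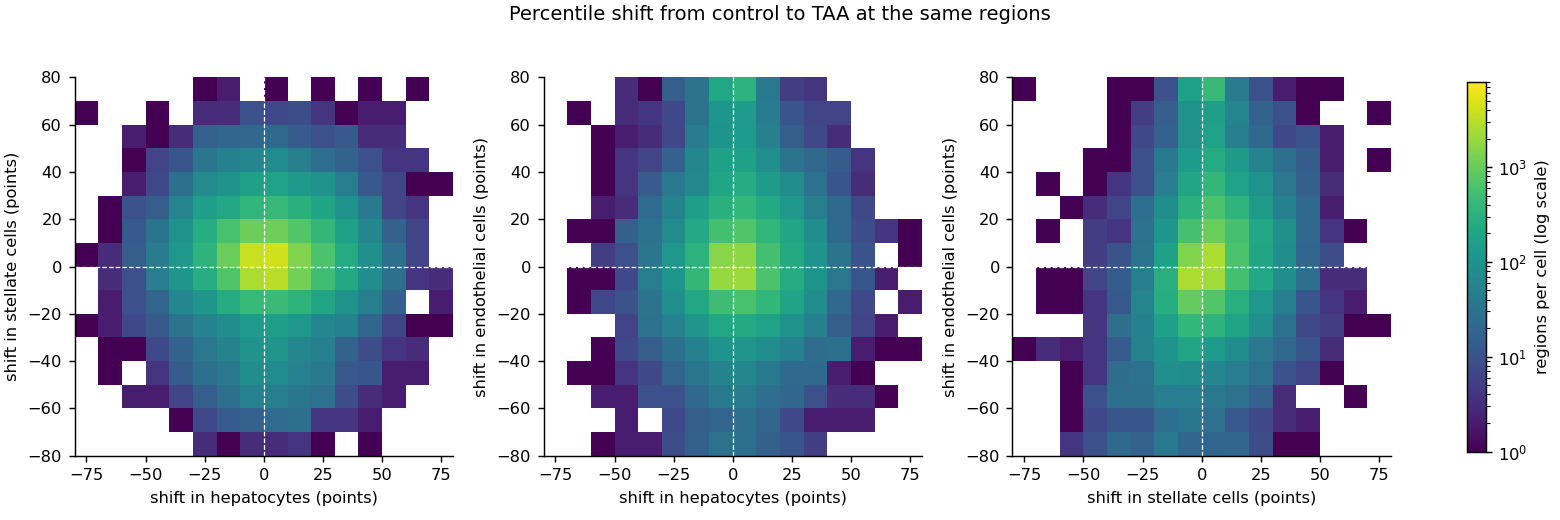
Percentile shift from control to TAA, in points, at regions kept in both cell types of a panel: HEPs with HSCs (32368 regions), HEPs with ECs (20939) and HSCs with ECs (23857). Counts per cell of 10 by 10 points on a logarithmic colour scale, with shifts beyond the axes placed in the outermost cells; the cloud of the HEP panels shows no tilt, and the Spearman correlation of the HSC and EC panel is 0.221.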

How the data were processed

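ATAC-seq reads were processed by the authors, who, per the submitters' processing notes and the study's methods, used FastQC 0.11.8, cutadapt 1.18, Bowtie2 2.3.4.3 with the GRCz11 genome, MACS2 2.1.0.2 and bedtools 2.27.1. They kept short, nucleosome-free fragments, shifted read ends for the transposase, combined the p-value tracks of the 3 replicates of a group by Fisher's method, called peaks by q-value and removed peaks over low-complexity sequence. The deposited score is a whole number with a ceiling of 3240, and the other deposited value columns were 0 or not used. Starts are printed counting from 1.

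Lists were compared with Python 3.11.15, numpy 2.4.6, pandas 2.3.3 and scipy 1.17.1, after a check on simulated peaks. A shift is the TAA minus the control percentile of a region. The regions named are from the 10 best scored lost and gained peaks, the 5 largest rises and falls of kept regions, the 3 windows of 100 kb with most changes and the longest runs. Also named are strong lost, gained and kept regions in no list of another cell type, and the windows of 1 Mb with the highest shares. Classes, lists and named regions were chosen with earlier results of these data known. Genes, promoters, motifs and sequences were not analysed here, since no GRCz11 annotation or genome was used. The gene lists and promoter shares planned for them were therefore not computed. Depth is unknown, and intervals cover counting error only.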

Additional observations from a re-analysis of the deposited data

Results flagged for a closer look

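The number of peaks at the highest possible score of 3240 moved in opposite directions after TAA. It fell by 68 in HEPs, from 70 to 2, and rose by 627 in HSCs, from 500 to 1127, and by 300 in ECs, from 114 to 414. With 1 list per group this difference was not tested. Scores depend on depth, which is unknown for these lists, and its part in the result was not tested.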

How the results depend on the processing

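The lists hold no read counts and no spread between libraries, so the sizes below were set only against counting error over peaks. No paired analysis was possible because the 3 libraries of a group are pooled in 1 list, and no replicate could be left out for the same reason. Over 12 results, 9 of 49 alternative values fell within the counting interval (95%) around the reported number and 40 fell beyond it. Of the 9, 3 came from keeping the 25 numbered chromosomes alone, which removed no peak and could change nothing. Both HEP correlations, which are near 0, changed sign with score ratios. Where a list was cut by rank or score, a peak whose counterpart was removed also counted as lost or gained. Apart from this change of rule, the cause of the moves was not tested. Promoter shares and motifs were not run.

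The better 50% of each list, set against the better 50% of the other list alone, gave 12.7% lost and 18.8% gained. Set against the whole of the other list, they gave 1.38% and 1.90%. The Jaccard index, the base pairs in both lists over those in either, was 0.692 in the better 50% against 0.665 reported. Equal length gave 16.9% lost and 16.9% gained, an index of 0.671, 19.4% of lost peaks followed by a lost peak, 19.0% of gained peaks followed by a gained peak, and 90.4% of lost and 94.2% of gained peaks in another cell type. The best 20000 peaks of each list gave 15.6% lost and 15.6% gained, an index of 0.696, 17.2% of gained peaks followed by a gained peak, and 77.6% of lost and 76.3% of gained peaks in another cell type. A score of at least 100 gave 13.1% lost, an index of 0.673, 15.4% of lost peaks followed by a lost peak, and 91.8% and 93.0% in another cell type. Overlap of at least 50% of both peaks gave 16.2% lost, 22.0% gained, 19.0% and 25.1% followed by a peak of their class, and 90.1% and 92.9% in another cell type. A summit inside the other peak gave 14.8% and 20.7%. No other peak within 500 bp gave 12.3% and 18.1%, and 87.9% of lost peaks in another cell type. The median width of lost and gained peaks was 182 bp and 183 bp among the best 20000 peaks. Correlations of shifts, chosen after the data were seen, were -0.0754, -0.0253 and 0.338 with the best 20000 peaks and 0.0146, 0.00925 and 0.273 with score ratios, for HEPs with HSCs, HEPs with ECs and HSCs with ECs.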
